A study of Mus musculus with 2 samples.

Results

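Malat1, Neat1, Meg3, Kcnq1ot1 and Snhg11 are genes for long noncoding RNAs that are known to stay in the nucleus, and they were followed here as a signal of nuclear RNA. Their rows were taken by gene symbol, which gave 5 of the 32285 genes in the count matrices, over 1857 barcodes. Each barcode stands for the RNA caught in 1 droplet. The samples were 2 libraries from the blood of wild-type mice given burn/tenotomy, in which a burn to the skin goes with a cut tendon. Blood cells were sorted on the iChip, a microfluidic device known for isolating rare cells from blood, and barcoded on the 10x Chromium platform. The labelled content was cMPCs (circulating mesenchymal progenitor cells) and blood cells. Replicate 1 held 1008 barcodes and replicate 2 held 849, and they form 1 group, so every comparison is between classes of barcodes within these libraries. No uninjured group, age or sex is given in the labels. Nor do they state whether each replicate is a mouse of its own, and the spread between them may be technical.

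As background, mature mouse red cells and platelets have no nucleus, whereas leukocytes and tissue cells do. An RNA that is not exported therefore marks droplets that held a nucleus or its contents, while haemoglobin and mitochondrial transcripts come from outside the nucleus. Malat1 sits in nuclear speckles, where splicing factors gather. Neat1 is the scaffold of paraspeckles. Meg3 and Kcnq1ot1 are imprinted, Meg3 being expressed from the maternal and Kcnq1ot1 from the paternal chromosome. Snhg11 is a small nucleolar RNA host gene known from neurons.

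The libraries held 3967318 unique molecular identifiers (UMIs, 1 per captured molecule) in replicate 1 and 3329292 in replicate 2. Haemoglobin genes took 73.5% of UMIs in replicate 1 and 75.2% in replicate 2, and mitochondrial genes took 9.22% and 8.97%. The median barcode had 2219 UMIs in replicate 1 and 1643 in replicate 2, none had fewer than 500, and the libraries shared 0 barcode sequences. Of the markers of a mesenchymal identity, Col3a1 (364 UMIs), Dcn (310), Col1a2 (119) and Col1a1 (63) were present, whereas Pdgfra and Lum had 2 UMIs each over all barcodes. The mesothelial markers were Gpm6a (393 UMIs), Upk3b (248), Muc16 (224), Wt1 (165), Msln (70) and Lrrn4 (62).

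Barcodes were divided into exclusive classes without using the lncRNAs. Mitochondria-rich barcodes had over 80% mitochondrial UMIs, 366 in replicate 1 and 285 in replicate 2. Globin-rich barcodes had at least 40% haemoglobin UMIs, 477 in replicate 1 and 388 in replicate 2. Of the rest, tissue-marker barcodes carried a UMI of Wt1 or Muc16 (mesothelial markers) or of Col3a1 or Dcn (matrix genes) and none of Ptprc. They numbered 32 in replicate 1 and 28 in replicate 2. Ptprc barcodes carried the pan-leukocyte gene Ptprc (CD45) and none of those 4, and numbered 75 in replicate 1 but only 6 in replicate 2. A further 57 and 142 barcodes carried none of the 5 markers and are called no-marker barcodes. A single barcode of replicate 1 carried both kinds of marker and is left out of the comparisons. Levels are given as UMIs of a gene per 1e6 UMIs of the class (CPM). Because haemoglobin dilutes every other gene in CPM, levels per 1e6 remaining UMIs (without haemoglobin, mitochondrial and rRNA-overlapping genes) are given beside them.

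The genes lie at mm10 chr19:5795690-5802672 (Malat1, minus strand, 1 exon of 6983 bases), chr19:5824708-5845478 (Neat1, minus strand, 1 exon of 20771 bases) and chr12:109541001-109571726 (Meg3, plus strand). Kcnq1ot1 lies at chr7:143203458-143296549 (minus strand, 1 exon of 93092 bases) inside and antisense to Kcnq1, and Snhg11, which this annotation classes as protein-coding, at chr2:158375638-158386145 (plus strand). Apart from Kcnq1, which had 5 UMIs in all, no gene with a row in the matrices overlapped any of them. Chromium cDNA is primed by oligo-dT, which is known to anneal also to runs of A inside a transcript. The longest run of at least 12 A in the sense strand of the annotated transcript is shown for Malat1 and Kcnq1ot1 for that reason, read from mm10 with 24 bases on each side, 5′ to 3′, with the run in capitals. The windows lie at chr19:5795964-5796023 (Malat1) and chr7:143226921-143227009 (Kcnq1ot1).
Malat1: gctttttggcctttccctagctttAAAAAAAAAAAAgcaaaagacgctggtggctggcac
Kcnq1ot1: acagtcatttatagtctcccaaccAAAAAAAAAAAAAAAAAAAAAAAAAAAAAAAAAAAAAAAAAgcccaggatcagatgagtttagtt
The Malat1 run is the A-rich tract that, as background, folds into a triple helix at the mature 3′ end in place of a poly(A) tail. Malat1 had 1 such run, Meg3 3 and Kcnq1ot1 8, or 1.43, 2.06 and 0.859 per 10 kb of transcript. The Neat1 and Snhg11 transcripts had 0. Of 141767 annotated mouse transcripts, 4.07% held such a run, at 0.270 per 10 kb. Whether reads began at these runs was not tested.

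Nuclear lncRNA was found in few barcodes, and nearly all of its UMIs came from the marker-bearing ones. A UMI of any of the 5 genes was found in 177 of 1008 barcodes of replicate 1 (17.6%, 95% exact Clopper-Pearson interval 15.3 to 20.1%) and in 63 of 849 of replicate 2 (7.42%, 5.75 to 9.39%). These intervals, and the floors below, cover counting error only. Malat1 gave 14786 UMIs in 228 barcodes, or 95.7% of all UMIs of the group. Neat1 gave 341 UMIs in 81 barcodes, Meg3 199 in 28 and Kcnq1ot1 118 in 55. Snhg11 had no UMI in 1857 barcodes, which allows a share of barcodes with a UMI of up to 0.162% (3 barcodes of the total) and does not bound the share expressing it. The 141 tissue-marker and Ptprc barcodes were 7.59% of all barcodes and held 95.2% of the Malat1 UMIs. Tissue-marker barcodes alone held 58.0% and Ptprc barcodes 37.1%. Counted by barcodes the split was wider. Of the 240 barcodes with a UMI of any of the genes, 53 were tissue-marker and 79 Ptprc barcodes. Another 55 were mitochondria-rich, 35 no-marker and 17 globin-rich barcodes, and 1 carried both kinds of marker.

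**Figure D1:**
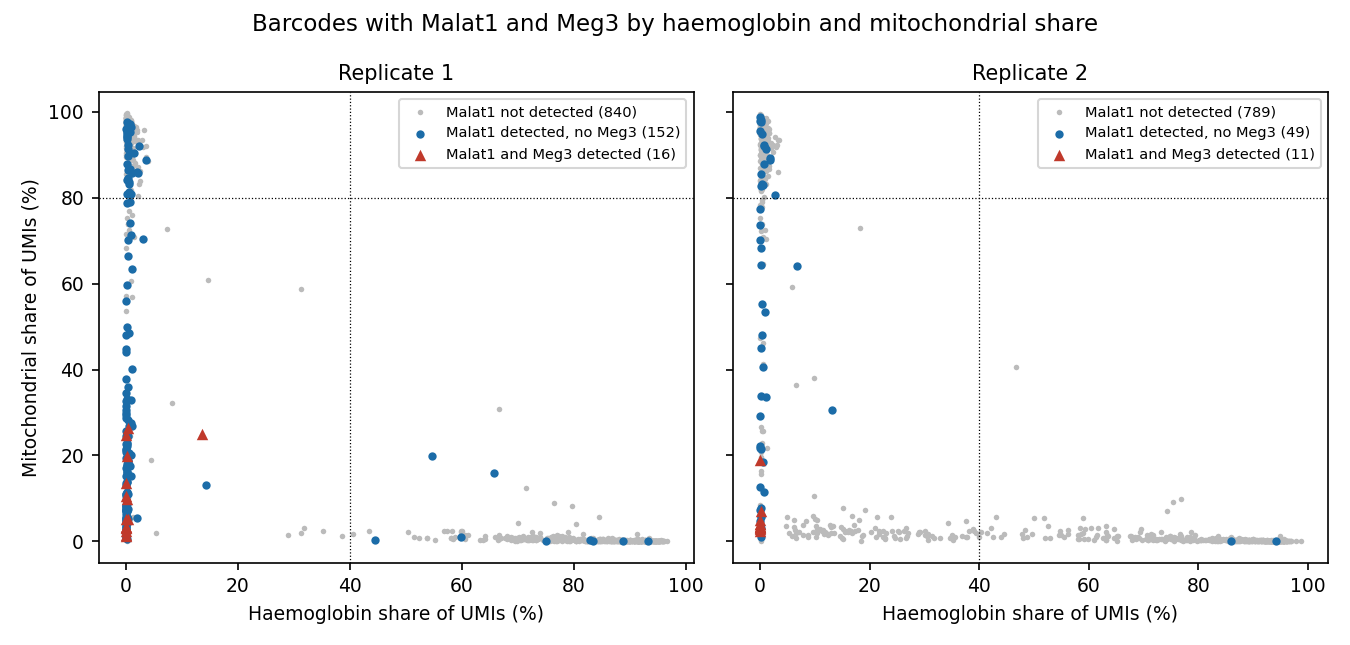
Each point is a barcode, placed by its haemoglobin share (x, % of UMIs) and mitochondrial share (y, % of UMIs), in replicate 1 (left) and replicate 2 (right). Blue points carry Malat1 without Meg3, red triangles carry both, and grey points have no Malat1. Dotted lines mark the limits of the globin-rich (40%) and mitochondria-rich (80%) classes. The Meg3-positive mitochondria-rich barcode of replicate 2 has no Malat1 and is grey. The 16 triangles of replicate 1 and the 11 of replicate 2 lie at the left edge or low on it, and globin-rich points are almost all grey.

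Malat1 was detected in most barcodes of the tissue-marker and Ptprc classes, which hold no barcode above 80% mitochondrial UMIs. It was found in 28 of 32 tissue-marker barcodes of replicate 1 (87.5%) and 25 of 28 of replicate 2 (89.3%), and in 73 of 75 (97.3%) and 6 of 6 Ptprc barcodes. In no-marker barcodes the shares were 43.9% (25 of 57) in replicate 1 and 7.04% (10 of 142) in replicate 2. They were 8.74% (32 of 366) and 5.96% (17 of 285) in mitochondria-rich barcodes, and 1.89% (9 of 477) and 0.515% (2 of 388) in globin-rich barcodes. The globin-rich share serves as the background, since red cells have no nucleus, and the part of free RNA in it was not tested. The median depth was 2105 and 2645.5 UMIs in tissue-marker, 1699 and 1755.5 in Ptprc, and 5953 and 5701 in globin-rich barcodes, replicate 1 first. Of remaining UMIs the medians were 1348.5 and 1423.5 in tissue-marker, 1310 and 1512.5 in Ptprc, and 326 and 339 in globin-rich barcodes, so for RNA other than haemoglobin the globin-rich barcodes were the shallower ones. Thinned to 100 remaining UMIs, the detected shares were 71.7% and 69.9% in tissue-marker, 85.8% and 94.4% in Ptprc, and 0.852% and 0.118% in globin-rich barcodes. Thinned to 500 UMIs a barcode, the detected shares were 82.5% and 82.1% in tissue-marker, 96.8% and 100% in Ptprc, and 0.628% and 0.0262% in globin-rich barcodes.

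Per barcode, Malat1 ran from 0 through a median of 17 to 868 UMIs in tissue-marker barcodes of replicate 1, and from 0 through 20.5 to 704 in replicate 2. In Ptprc barcodes it ran from 0 through 35 to 403 UMIs in replicate 1 and from 18 through 66.5 to 154 in replicate 2. The ranges of these classes overlap, and the richest barcode gave 17.4% of the class's Malat1 UMIs in replicate 1 and 19.6% in replicate 2 for tissue-marker barcodes. At its highest, Malat1 was 17.2% of all UMIs of a tissue-marker barcode and 10.5% of a Ptprc barcode. Class sums gave 51368 and 28674 CPM in tissue-marker barcodes (mean 40021 ± 16047, SD, n = 2 libraries) and 27969 and 32134 CPM in Ptprc barcodes (30051 ± 2945). The same gene was at 5836 and 638 CPM in no-marker, 217 and 68.9 in mitochondria-rich, and 33.6 and 0.718 in globin-rich barcodes. In replicate 2 the Ptprc level was above the tissue-marker level, and in replicate 1 below it. Per 1e6 remaining UMIs Malat1 stood at 70000 and 37433 in tissue-marker, 34590 and 36527 in Ptprc, 15995 and 2561 in no-marker, 5138 and 1452 in mitochondria-rich, and 593 and 12.8 in globin-rich barcodes, the last from 2 UMIs. The step between tissue-marker and Ptprc barcodes is within the spread between libraries, and the other classes lay below both in each library.

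**Figure D2:**
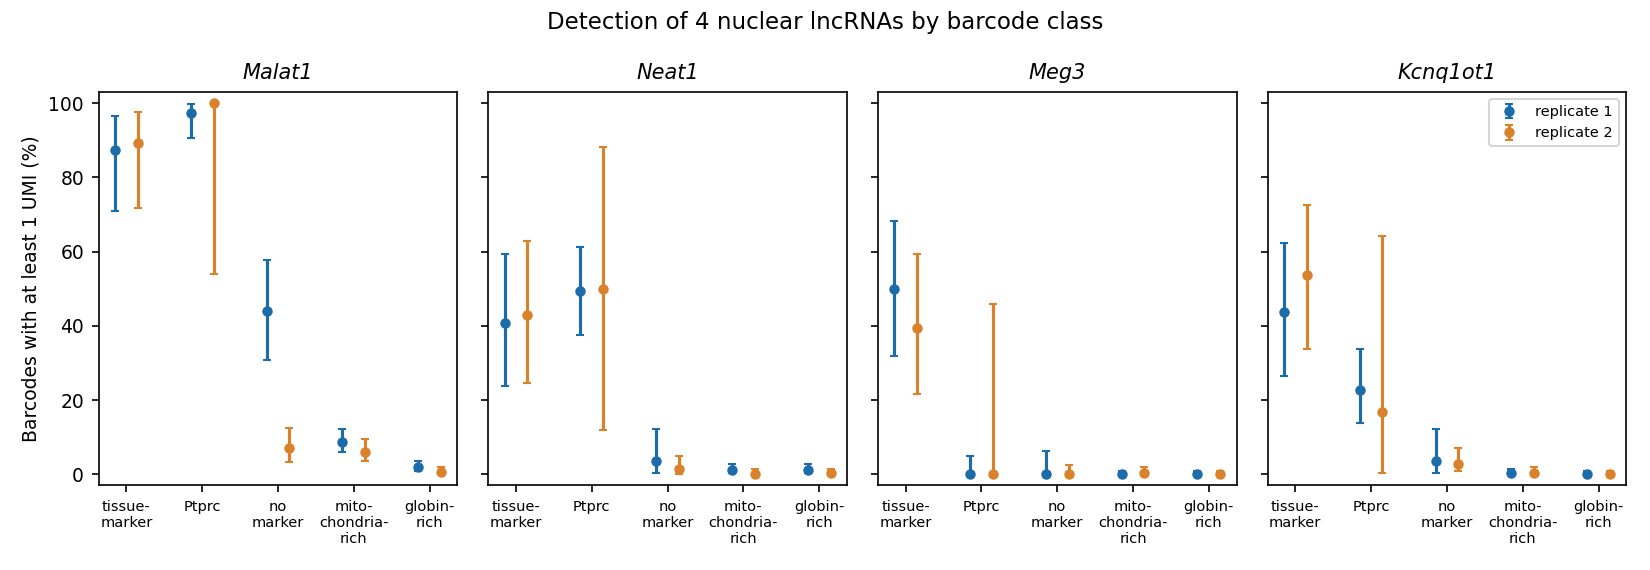
Points give the share of barcodes with at least 1 UMI (y, %) of each lncRNA by barcode class (x), with replicate 1 in blue, replicate 2 in orange and 95% exact binomial intervals as bars. Malat1 is near the top in tissue-marker and Ptprc barcodes of both libraries, whereas Meg3 is above 0 in tissue-marker barcodes and at 0 in the 75 and 6 Ptprc barcodes.

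Neat1 was about as frequent in tissue-marker as in Ptprc barcodes and was always accompanied by Malat1 there. It was found in 13 of 32 (40.6%) and 12 of 28 (42.9%) tissue-marker barcodes and in 37 of 75 (49.3%) and 3 of 6 (50%) Ptprc barcodes, against 6 of 477 (1.26%) and 1 of 388 (0.258%) globin-rich barcodes. Its level was 1288 and 550 CPM in tissue-marker, 598 and 435 in Ptprc, and 6.97 and 0.359 in globin-rich barcodes. A single tissue-marker barcode of replicate 1 held 71 of that class's 125 Neat1 UMIs (56.8%). Per kb of their single exons, Malat1 stood at 7356 and 4106 CPM per kb in tissue-marker barcodes, where Neat1 stood at 62.0 and 26.5 and Kcnq1ot1 at 2.99 and 4.97. In Ptprc barcodes Malat1 stood at 4005 and 4602 CPM per kb, Neat1 at 28.8 and 21.0, and Kcnq1ot1 at 1.43 and 0.779, the last from 1 UMI in replicate 2. In both classes CPM fell and exon length rose from Malat1 through Neat1 to Kcnq1ot1. Dividing by length could therefore not change this order, and the order per kb adds nothing to that in CPM.

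Nearly all Meg3 lay in barcodes with a tissue marker. Of its 199 UMIs, 198 lay in 27 tissue-marker barcodes, 16 of 32 in replicate 1 (50%, 31.9 to 68.1%) and 11 of 28 in replicate 2 (39.3%, 21.5 to 59.4%). The remaining UMI lay in a mitochondria-rich barcode of replicate 2. No Meg3 UMI was found in 81 Ptprc barcodes (a share of up to 3.70% with a UMI is allowed, which does not bound the share expressing it), 199 no-marker barcodes or 865 globin-rich barcodes. Among tissue-marker barcodes it was found in 12 of 18 with Wt1 in replicate 1 and 10 of 19 in replicate 2. With Col3a1 it was found in 13 of 21 and 6 of 18, and a barcode can count under several markers. Depth moved with Meg3 among tissue-marker barcodes, with a median of 4113 UMIs against 1096.5 in Meg3-negative ones of replicate 1, and 6102 against 1334 in replicate 2, Meg3-positive barcodes first. The median mitochondrial share of Meg3-positive barcodes was 5.23% against 24.7% in replicate 1 and 3.54% against 30.5% in replicate 2. Thinned to 500 UMIs, Meg3 would be found in 21.2% and 16.9% of tissue-marker barcodes.

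The neighbours of Meg3 in its imprinted cluster were also examined, and are named after their values were seen. The noncoding ones are known to be expressed from the same chromosome copy as Meg3. Rian, the next lncRNA of the cluster, had 54 UMIs, all in 19 tissue-marker barcodes, 17 of which also carried Meg3. Mirg, a microRNA host further along, had 8 UMIs in 7 barcodes, and all 7 carried Meg3. The protein-coding genes of the cluster were nearly silent, with 0 UMIs of Dlk1 and Dio3 and 1 of Rtl1.

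Kcnq1ot1, which lies antisense in Kcnq1 and silences neighbouring genes on the paternal copy, was found in both marker-bearing classes. It was detected in 14 of 32 (43.8%) and 15 of 28 (53.6%) tissue-marker barcodes and in 17 of 75 (22.7%) and 1 of 6 (16.7%) Ptprc barcodes, with 0 of 865 globin-rich barcodes. The level was 278 and 462 CPM in tissue-marker and 133 and 72.5 CPM in Ptprc barcodes, the last from a single UMI. No tissue-marker barcode held more than 16 UMIs and no Ptprc barcode more than 2. Of the genes around it, Cdkn1c, a cell cycle inhibitor expressed from the maternal copy, had 12 UMIs in 4 tissue-marker barcodes of replicate 2, all with Kcnq1ot1. Tissue-marker barcodes of replicate 2 with Kcnq1ot1 were also deeper, with a median of 6102 UMIs against 1334 in those without it. Kcnq1 shared 2 of its 5 barcodes with Kcnq1ot1, Igf2 1 of 4, H19 0 of 2 and Slc22a18 0 of 1. Phlda2 had 0 UMIs. These neighbours are also named after their values were seen.

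In the marker-bearing classes the other lncRNAs were found only together with Malat1, but not always with one another. Of Meg3-positive tissue-marker barcodes, 7 of 16 in replicate 1 and 7 of 11 in replicate 2 carried Kcnq1ot1. In the 141 tissue-marker and Ptprc barcodes, 0 carried Neat1, Meg3 or Kcnq1ot1 without Malat1. All 4 detected genes occurred together in 7 of 32 and 6 of 28 tissue-marker barcodes. Meg3 was absent from Ptprc barcodes, so no more than 3 could occur together there, as in 10 of 75 of replicate 1. Outside those classes 12 barcodes carried another of the genes without Malat1. Depth moved with detection, as given for Meg3. The part of depth, or of the abundance of Malat1, in this overlap was not tested.

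Differences between classes were tested on UMI sums per class and library with edgeR's quasi-likelihood test, scaled by total UMIs, with the library as a block and Benjamini-Hochberg adjustment over 3530 genes. Malat1, Neat1, Meg3 and Kcnq1ot1 passed the filter on low counts and Snhg11 did not. Against globin-rich barcodes edgeR called all 4 higher in tissue-marker barcodes, Meg3 and Kcnq1ot1 against a count of 0. Of all genes tested, 89% were also higher and 1.61% lower (90.6% called in either direction), with a median log2 fold change of 8.07, so this count is near that of all genes. The share of calls that were higher, 98.2%, was 54.4% with trimmed-mean (TMM) scaling and 30.3% with DESeq2, and the median of all genes was then 0.68 and 2.07. That median includes 1489 genes with 0 UMIs in globin-rich barcodes, and was 7.36 with such genes at the floor of 3 UMIs. Relative to the fitted median of 8.07, Malat1 stood 3.92 above and Neat1 0.18 above. Malat1 had a log2 fold change of 11.98 (SE 1.23, edgeR adjusted p = 7.45e-19), rank 38 of 3530 from the top, and Neat1 one of 8.25 (SE 1.24, edgeR adjusted p = 1.21e-10), rank 1629. Both ranks count the 1489 genes with 0 UMIs in globin-rich barcodes, whose fitted values are no measure of size, so they are no position among measured changes. DESeq2 did not call Neat1 (log2 fold change 1.28, adjusted p = 0.485) or Meg3 (adjusted p = 0.110). Meg3 and Kcnq1ot1 had 0 UMIs in globin-rich barcodes, so their fitted values are no measure of size. Both, like Neat1, passed the filter on low counts through the marker-bearing classes, where they are high. The calls of Neat1, Meg3 and Kcnq1ot1 against globin-rich barcodes therefore add nothing to the counts. Against a floor of 3 UMIs over the class in both libraries, Meg3 was at least 1805-fold higher in CPM and Kcnq1ot1 at least 775-fold. With the floor taken in 1 library alone, the bounds in CPM were 1247-fold in replicate 1 and 651-fold in replicate 2 for Meg3, and 306-fold and 429-fold for Kcnq1ot1. Per 1e6 remaining UMIs the bounds over both libraries were at least 135-fold and 58.1-fold. The fold for Malat1 over both libraries was 2077 in CPM and 156 per 1e6 remaining UMIs. In replicate 1 it was 1527 in CPM and 118 per 1e6 remaining UMIs, and in replicate 2, against only 2 globin-rich UMIs, 39941 and 2918. The fold of replicate 1 rested on the globin-rich side on 2 barcodes, without which it was 18767 in CPM. The size of this fold is therefore known only loosely.

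Those 2 globin-rich barcodes of replicate 1 stood apart from all others of their class. They held 61 and 59 of the 137 UMIs of the lncRNAs found in 865 globin-rich barcodes, at haemoglobin shares of 54.6% and 44.5%, and had 841 and 609 detected genes. The first also carried 1 Ptprc UMI and 2 tissue-marker UMIs, and the second none. The other 15 positive globin-rich barcodes, 12 of them in replicate 1, held 1 or 2 UMIs each. Without the 2, Malat1 had 9 UMIs in 475 globin-rich barcodes of replicate 1 and Neat1 had 5. Whether they were droplets with more than 1 cell was not tested, and no doublets were removed here.

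Against globin-rich barcodes Ptprc barcodes were higher for Malat1, Neat1 and Kcnq1ot1, among 84.8% of all genes higher and 1.36% lower (86.2% called either way) and a median log2 fold change of 8.12 (7.53 with genes at 0 set at the floor). The share of calls that were higher, 98.4%, was 45.2% with TMM and 19.5% with DESeq2. The log2 fold change was 11.88 for Malat1 (SE 1.23, edgeR adjusted p = 2.25e-18) and 7.45 for Neat1 (SE 1.23, edgeR adjusted p = 3.88e-09), the second 0.66 below the median of all genes. The Neat1 call was not kept in every setting: with TMM it was 1.04 (edgeR adjusted p = 0.350) and with DESeq2 it was -0.04 (adjusted p = 1). Kcnq1ot1, at 0 UMIs in globin-rich barcodes, was at least 261-fold higher in CPM, and it was not called by DESeq2 (adjusted p = 0.252). Meg3 had 0 UMIs in both classes. Neat1 and Kcnq1ot1 passed the filter on low counts through the marker-bearing classes, so their calls here add nothing to the counts.

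Between tissue-marker and Ptprc barcodes Meg3 was the only lncRNA of the group that edgeR called, among 17.9% of genes called (10.3% higher and 7.59% lower). It had 110 and 88 UMIs in tissue-marker barcodes and 0 and 0 UMIs in Ptprc barcodes. Meg3 passed the filter on low counts through the tissue-marker sums, where it is high, so its call (edgeR adjusted p = 4.33e-05) adds nothing to these counts. Against the floor of 3 UMIs the Meg3 level was at least 57.6-fold higher over both libraries and, with the floor taken in that library alone, at least 68.2-fold in replicate 1. In replicate 2, with 6 Ptprc barcodes, that bound was 3.22-fold. DESeq2 gave an adjusted p of 0.0662, so the call is not held by every tool. Malat1 had a log2 fold change of 0.10 (95% interval -1.46 to 1.66, edgeR adjusted p = 0.965), with 1.84 times the Ptprc level in replicate 1 and 0.892 times in replicate 2. Neat1 had 0.80 (-1.16 to 2.75, adjusted p = 0.713) and Kcnq1ot1 1.58 (-0.47 to 3.62, adjusted p = 0.364). These intervals include differences of over 2-fold in at least 1 direction, so equal levels are not shown.

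**Figure D3:**
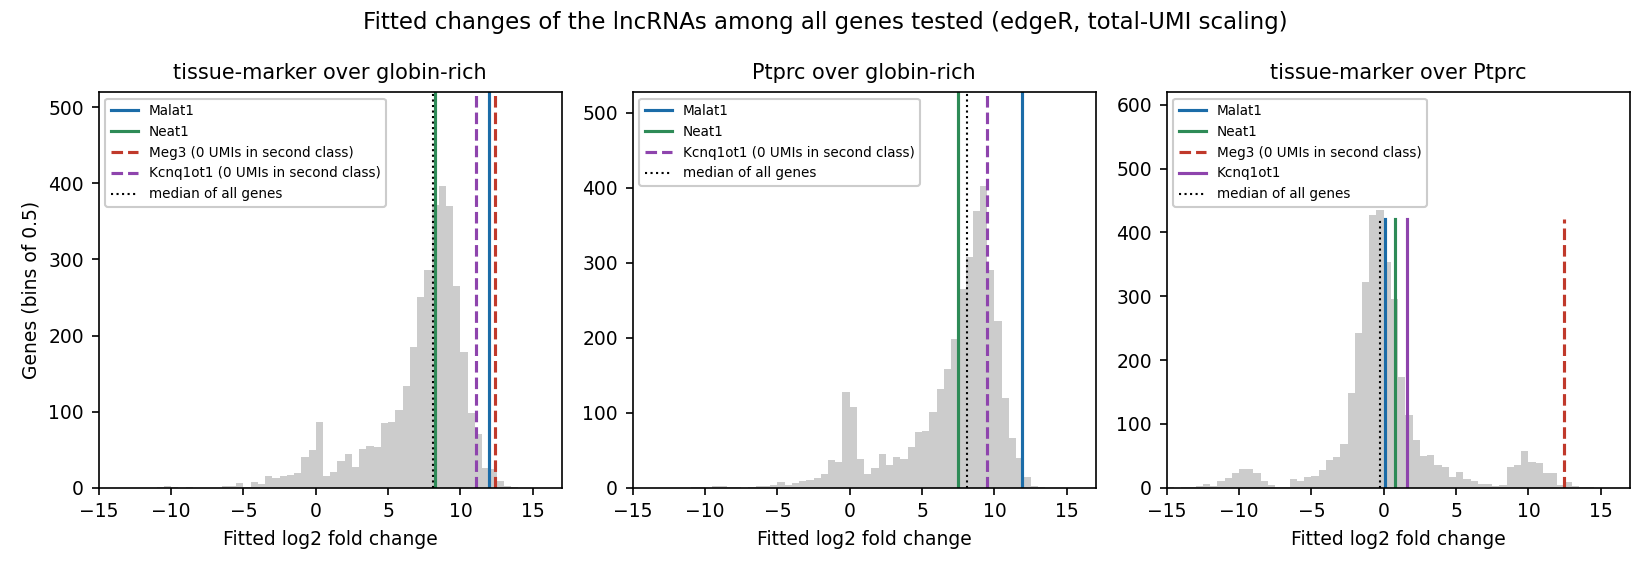
Grey bars count all 3530 genes by fitted log2 fold change (x, bins of 0.5) in the 3 comparisons, coloured lines mark the lncRNAs and the dotted line the median of all genes. Dashed lines are genes with 0 UMIs in the second class, whose position is no measure of size. Against globin-rich barcodes most genes lie to the right of 0 and Neat1 lies near their median (8.07 and 8.12). In the third panel Meg3 alone is dashed, so its distance from the median is not read as a size.

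By haemoglobin share, Malat1 was mostly found in barcodes with almost no haemoglobin. Among barcodes with up to 80% mitochondrial UMIs it was found in 83.8% (119 of 142) with under 1% haemoglobin in replicate 1 and in 61.3% (38 of 62) in replicate 2. Between 1 and 10% haemoglobin it was found in 6 of 14 and 2 of 25 barcodes, and between 10 and 40% in 2 of 9 and 1 of 89. Above 90% it was found in 1 of 173 and 1 of 162. The libraries differed in makeup here, since replicate 2 had 89 barcodes between 10 and 40% haemoglobin and replicate 1 had 9.

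By mitochondrial share, Malat1 was most often found at intermediate values. It was found in 5.99% of barcodes with up to 5% mitochondrial UMIs in replicate 1 and 3.27% in replicate 2, most of these being globin-rich. The shares were 86.6% and 28.1% between 5 and 20%, 80.9% and 45.5% between 20 and 50%, 37.0% and 38.1% between 50 and 80%, and 8.74% and 5.96% above 80%. Among barcodes with a tissue marker and no Ptprc, detection was between 80% and 100% in every bin up to 50% mitochondrial UMIs. Above 80% it was 4 of 32 in replicate 1 and 5 of 23 in replicate 2. Ptprc barcodes above 80% gave 3 of 4 and 1 of 6, and those without a marker 23 of 328 and 11 of 256. Depth moved with this: those with a tissue marker above 80% held a median of 35.5 and 64 remaining UMIs, against 1348.5 and 1423.5 in the tissue-marker class. The part of depth in this was not tested.

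**Figure D4:**
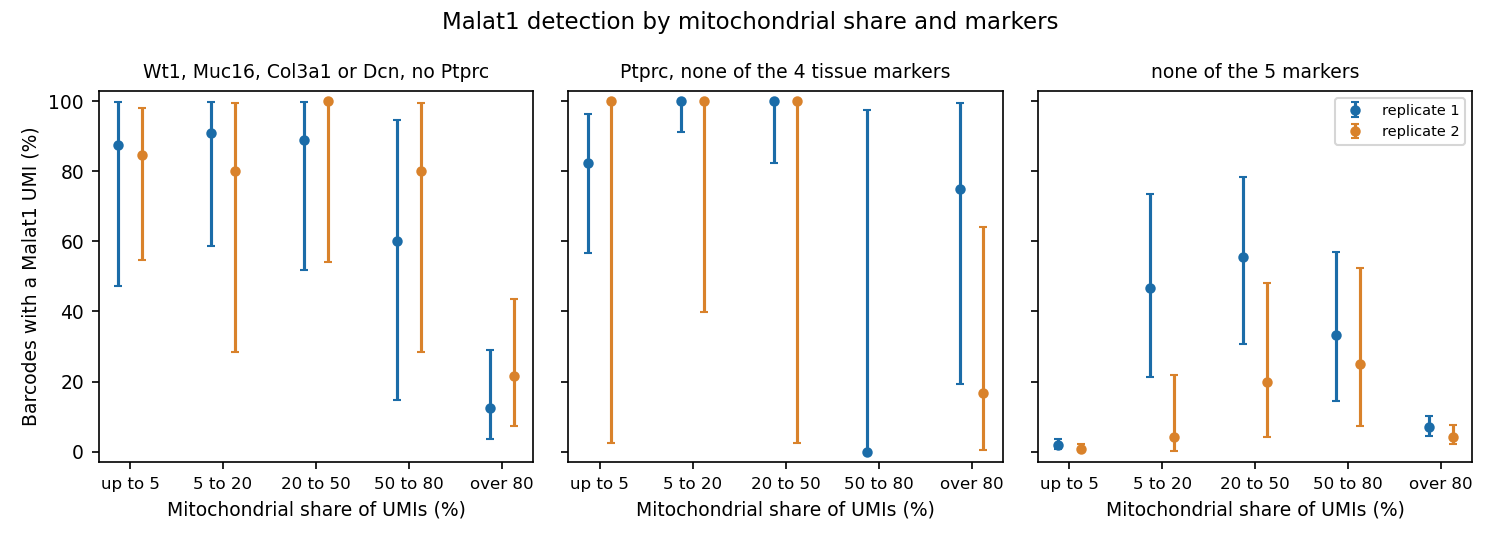
Points give the share of barcodes with a Malat1 UMI (y, %) by mitochondrial share (x, % of UMIs) for barcodes with a tissue marker (left), Ptprc (middle) and none of the 5 markers (right, globin-rich barcodes included), with replicate 1 in blue, replicate 2 in orange and 95% exact binomial intervals. Detection with a tissue marker is 12.5% and 21.7% above 80% mitochondrial UMIs, below every other bin of that panel.

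The no-marker barcodes with and without Malat1 differed in some of the marker lists they carried. In replicate 1, 22 of 25 Malat1-positive ones carried a UMI of some marker list other than the erythroid one, 15 of them of the leukocyte list (Arhgap15, Dock2, Cd52, Coro1a, Laptm5) and 11 of the B cell list. In replicate 2 the counts were 9 of 10, with 4 leukocyte and 4 B cell. Of Malat1-negative ones, 24 of 32 in replicate 1 also carried such a marker, 13 of the leukocyte and 1 of the B cell list, and in replicate 2 27 of 132 did, 7 leukocyte and 2 B cell. Malat1-negative no-marker barcodes carried platelet markers (Ppbp, Pf4, Itga2b, Itgb3, Gp9, Nrgn) in 19 of 32 in replicate 1 and 22 of 132 in replicate 2, and erythroid markers in 20 of 32 and 108 of 132. Platelet markers were in 4 of 25 and 3 of 10 Malat1-positive ones, and erythroid ones in 0 of 25 and 1 of 10. The platelet share was thus lower with Malat1 in replicate 1 but higher in replicate 2 (30% against 16.7%). Monocyte or macrophage markers were in 16% with against 6.25% without Malat1 in replicate 1, and 30% against 3.79% in replicate 2. Endothelial markers were in 32% against 18.8%, and 30% against 5.30%. Each remaining list was found in at most 3 barcodes of a group. The Malat1-negative barcodes of replicate 2 had a median haemoglobin share of 15.0%, and the 10 positive ones 0.164%. Median remaining UMIs were 416 against 257 in replicate 1 and 337.5 against 167 in replicate 2, positive barcodes first, so depth moved with Malat1 as well.

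A second measure that does not use the lncRNAs was the share of remaining UMIs from protein-coding genes spanning at least 100 kb, since long genes are known to be rich in unspliced, nuclear transcripts. Its median was 38.9% and 40.1% in tissue-marker, 39.6% and 40.8% in Ptprc, 38.4% and 41.3% in no-marker, 26.1% and 30% in mitochondria-rich, and 18.4% and 18.8% in globin-rich barcodes. In no-marker barcodes it did not follow Malat1 in both libraries, being 43.0% with and 26.1% without Malat1 in replicate 1, but 32.5% with and 41.7% without in replicate 2. Of the long genes, 5 were found in at least 53.2% of globin-rich barcodes: Cmss1, Camk1d, Gphn, Epb41 (a red cell membrane skeleton protein) and Tfdp2. With these 5 left out, a choice made after seeing the data, the medians were 36.8% and 36.6% in tissue-marker, 37.0% and 39.9% in Ptprc, and 2.40% and 2.66% in globin-rich barcodes. No-marker barcodes then had 35.2% with and 13.7% without Malat1 in replicate 1, and 27.3% with and 6.08% without in replicate 2. The 5 genes held 31.3% of the remaining UMIs of the Malat1-negative no-marker barcodes of replicate 2. Since they were chosen for being common in globin-rich barcodes, leaving them out itself lowers the share in barcodes that contain haemoglobin, and the order without them is no support for that of Malat1.

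Other nuclear lncRNAs were rarer than Malat1. Of 20 listed, 9 were tested, and 9 were higher in tissue-marker than in globin-rich barcodes, near the 89% of all genes, with a median log2 fold change of 8.44 against 8.07 over all genes (8.0 against 7.36 with genes at 0 set at the floor). In Ptprc barcodes 7 of 9 were higher, against 84.8% of all genes (median 8.49 against 8.12, or 7.08 against 7.53 at the floor). DESeq2 called 2 of the 9 in tissue-marker and 0 in Ptprc barcodes. Between tissue-marker and Ptprc barcodes edgeR called Rian, Mir100hg, Mir99ahg and Airn higher, where 10.3% of all genes were, and DESeq2 called 2 of the 9. Rian and Mir100hg, named after their values were seen, had 0 UMIs in both Ptprc and globin-rich barcodes and so passed the filter through the tissue-marker sums, and the count over the list is no support for a difference. Airn, the imprinted antisense RNA of Igf2r, was at 721 and 757 CPM in tissue-marker, 72.0 and 0 in Ptprc, and 0 and 0 in globin-rich barcodes (log2 fold change over Ptprc 3.54, SE 1.12, edgeR adjusted p = 0.0128). Airn too passed the filter through the tissue-marker sums, where it is high, so its call adds nothing to these levels. The Ptprc value of 0 in replicate 2 comes from 6 barcodes. Mir99ahg, a microRNA host gene, was at 783 and 932 CPM in tissue-marker, 66.5 and 0 in Ptprc, and 0.303 and 0.718 in globin-rich barcodes (log2 fold change over Ptprc 4.14, SE 1.19, edgeR adjusted p = 0.00506). Dleu2 had 371 and 263 CPM in tissue-marker and 487 and 435 in Ptprc barcodes. Pvt1, next to Myc, had 41.2 and 31.9 CPM in tissue-marker and 249 and 72.5 in Ptprc barcodes. Xist, Snhg14, Rmst and Hotair had 0 UMIs in all barcodes. Leaving out Gm26917, UMIs of the list were found in 87.5% and 89.3% of tissue-marker, 69.3% and 66.7% of Ptprc, 8.47% and 10.5% of mitochondria-rich, and 1.47% and 0.773% of globin-rich barcodes. In mitochondria-rich barcodes 4 of 31 and 2 of 30 barcodes with such a UMI also carried Malat1. Among all mitochondria-rich barcodes Malat1 was in 32 of 366 and 17 of 285. In tissue-marker barcodes 27 of 28 and 25 of 25 with such a UMI carried Malat1, beside 28 of 32 and 25 of 28 of the whole class. The shares thus lay near those of each class, and the part of depth was not tested.

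Small nucleolar RNA host genes, the class Snhg11 belongs to, were low throughout. Of 16 listed, 14 were matched to a single row, and their summed level was 371 and 295 CPM in tissue-marker, 438 and 363 in Ptprc, and 9.09 and 7.90 in globin-rich barcodes. Only Gas5, whose spliced RNA is known to reach the cytoplasm, passed the filter. It had 37 of its 94 UMIs in globin-rich barcodes. Its log2 fold change of tissue-marker over globin-rich barcodes was 3.65 (SE 1.01, edgeR adjusted p = 0.00036), a difference of -4.42 from the median of all genes. DESeq2, which differs from the edgeR fit in both test and scaling, called Gas5 lower in both tissue-marker and Ptprc barcodes, and the cause was not tested. Snhg1 had 37 UMIs, Snhg8 28, Snhg18 19, Snhg12 16 and Snhg6 15.

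Genes for the proteins of speckles and paraspeckles, whose mRNAs are exported, were as a summed list found in more globin-rich barcodes than Malat1. Of 15 listed, 13 were tested, 13 were higher in tissue-marker than in globin-rich barcodes (median log2 fold change 7.55), and 13 were higher in Ptprc than in globin-rich barcodes (9.06), against 89% and 84.8% of all genes. With genes at 0 set at the floor the medians were 7.35 and 7.84, near those of all genes, and DESeq2 called 0 of the 13 in either comparison. Between tissue-marker and Ptprc barcodes edgeR called 0 of 13, with 0 at an unadjusted p under 0.05 and 0 by DESeq2. Their summed UMIs were found in 75% and 82.1% of tissue-marker, 96% and 100% of Ptprc, and 7.76% and 8.25% of globin-rich barcodes. The last shares stood above those of Malat1 in the same barcodes, 1.89% and 0.515%, but set a sum over 15 genes against 1 gene. In tissue-marker barcodes the shares of the list stood below those of Malat1, 87.5% and 89.3%. Among the genes with the most UMIs were Ddx5 (292), Son (214), Srrm2 (193), Srsf5 (116) and Sfpq (113).

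Genes found in much the same barcodes as each lncRNA were ranked by the Jaccard index (shared barcodes over all barcodes of either gene), taking the lower of both libraries, over 3825 genes. For Malat1 they were Zbtb20 (0.463), Ppp3ca (0.435) and Macf1 (0.415). For Neat1 they were Zfand3 (0.427), Herc4 (0.407) and Nsd1 (0.40). For Meg3 they were Cdc42bpa (0.563), Abcb1b (0.533) and Bmpr1a (0.529), with Wt1os, antisense to the mesothelial marker Wt1, at the same 0.529. For Kcnq1ot1 they were Cobll1 (0.365), Scaper (0.346) and Nufip2 (0.345). These barcodes share their library and depth, so the index describes overlap in deep barcodes too.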

How the data were processed

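Single-cell RNA was measured in 2 libraries of 1 group. The authors deposited raw UMI counts per gene and barcode. Cell Ranger 7.1.0, Seurat 5 and the build mm10 are listed, per the submitters' processing notes, without saying what Seurat did. Cell calling, any doublet removal and intron counting are not described in the sources, and no doublets were removed here. The lncRNAs, classes and gene lists were chosen with earlier results of these data known. All barcodes were kept. Haemoglobin, mitochondrial and marker genes that define the classes stayed in totals but were not tested. UMIs were summed per class and library (5 classes, 10 sums, 4 residual degrees of freedom) and fitted with edgeR 4.0.16 in R 4.3.3 (filterByExpr, total-UMI scaling, library as block, threshold 0.05). The fit was run on simulated sums drawn around the Ptprc profile, and only tissue-marker against Ptprc barcodes was looked at. That run says nothing of the comparisons with globin-rich barcodes or of genes with 0 UMIs in a class. Each SE is the fold change over the root of the test's F, and intervals on fold changes take a normal distribution. Total UMIs were the main scaling because earlier work on these files gave widely spread TMM factors, and here they ran from 0.0609 in globin-rich to 10.2 in Ptprc sums. Classes come from the same libraries, which is why the library is a block. Shares have exact binomial 95% intervals, and floors are 3 UMIs. Gene coordinates and sequences came from mm10 with GENCODE M21, to which 32158 of 32285 gene IDs were matched. Named genes are the 5 lncRNAs, at most 6 of each list with the most UMIs (at least 10), and the 3 most alike by Jaccard index. Alternatives were other scalings, filters, cuts, thinning, DESeq2 1.42.0, no block and leaving out a library. A gene and a sequence that the rules above would name are not reported here.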

Additional observations from a re-analysis of the deposited data

How the results depend on the processing

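The share of tissue-marker barcodes with any of the lncRNAs was 88.4% (mean of the libraries). It was 94.1% with a barcode filter (at least 100 genes, up to 20% mitochondrial UMIs), 91.3% with mitochondria-rich set from 20%, 86.9% with globin-rich set from 90%, 92.9% with at least 2 marker UMIs, 83.6% thinned to 500 UMIs and 73.3% thinned to 100 remaining UMIs. In Ptprc barcodes 98.7% became 90.9% at 100 remaining UMIs. In mitochondria-rich barcodes 8.25% became 15.2% with the 20% limit, 5.26% thinned to 500 UMIs and 18.9% at 100 remaining UMIs, where 348 of 366 and 261 of 285 barcodes were too shallow. Leaving out a library gave 87.5 to 89.3% in tissue-marker, 97.3 to 100% in Ptprc, 7.04 to 43.9% in no-marker, 6.67 to 9.84% in mitochondria-rich and 0.773 to 2.94% in globin-rich barcodes. The long-gene share without 5 common genes, added after seeing the data, was 36.7% (39.5% with them) in tissue-marker, 38.4% (40.2%) in Ptprc, 13.3% (39.9%) in no-marker, 22.7% (28.0%) in mitochondria-rich and 2.53% (18.6%) in globin-rich barcodes. In the same order, the 2 libraries gave 36.6 to 36.8%, 37 to 39.9%, 6.59 to 20%, 21.4 to 24.04% and 2.40 to 2.66% without those genes, and 38.9 to 40.1%, 39.6 to 40.8%, 38.4 to 41.3%, 26.1 to 30% and 18.4 to 18.8% with them. Genes called between tissue-marker and globin-rich barcodes were 3197, 98.2% of them higher, but 1041 (54.4% higher, median log2 0.68) with TMM, 1684 (83.7%, median 4.48) scaled by remaining UMIs, 8335 with no filter, 551 (30.3%, median 2.07) with DESeq2 and 2080 with the barcode filter. Between Ptprc and globin-rich barcodes they were 3043, but 918 (45.2% higher against 98.4%), 1570 (82.4%), 7066, 466 (19.5%) and 1937 under the same changes. Between tissue-marker and Ptprc barcodes they were 633 (57.7% higher), but 329 (73.3%) with TMM, 225 with DESeq2 and 1050 with globin-rich set from 90%. With no replicate block the counts were 3221, 3087 and 879, and no call of the lncRNAs changed. Neat1 was reversed between Ptprc and globin-rich barcodes with DESeq2 (log2 fold change -0.0432). With DESeq2, tissue-marker over globin-rich was not called for Meg3 (adjusted p = 0.110) or Neat1 (adjusted p = 0.485). Malat1 kept its call against globin-rich barcodes under every scaling, tool, filter and class limit run. The cause of these shifts was not tested. With 1 library left the fit has no residual degrees of freedom, so no gene counts were made. The 6 Ptprc barcodes of replicate 2, with 13786 UMIs, limit that class.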

Other observations

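Gm26917, listed with the nuclear lncRNAs, had 515 of its 874 UMIs in no-marker and 254 in Ptprc barcodes. It stood at 258 and 215 CPM in tissue-marker, 1341 and 870 in Ptprc, 1360 and 3259 in no-marker, and 1.82 and 0 in globin-rich barcodes, replicate 1 first. It lies at mm10 chr17:39843013-39846341, next to Gm42418 at chr17:39846958-39848788, a gene known to overlap ribosomal RNA sequence. Mir99ahg had 48 of its 265 UMIs in mitochondria-rich barcodes, at 72.4 and 90.7 CPM, where Malat1 stood at 217 and 68.9 CPM. The single barcode with both Ptprc and a tissue marker held 17 Malat1 UMIs, 1 Neat1 UMI and no Meg3 or Kcnq1ot1.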
